A study of Canis lupus familiaris with 4 samples.

Results

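The genes described here are the heat shock chaperones and co-chaperones of the cytosol and the mitochondrion: the small heat shock proteins, HSP70, HSP110, HSP90, the cytosolic chaperonin, the J-domain proteins of the DNAJA, DNAJB and DNAJC families, the BAG proteins, the mitochondrial chaperones, and the heat shock factors HSF1 and HSF2. They were chosen by the symbols of these families, with the endoplasmic reticulum chaperones *HSPA5*, *DNAJB9*, *DNAJB11*, *DNAJC3* and *DNAJC10* left out. The symbols still take in 7 genes whose proteins are placed in the endoplasmic reticulum or its membrane, *HSPA13*, *DNAJB12*, *DNAJB14*, *DNAJC1*, *DNAJC16*, *DNAJC18* and *DNAJC25*. Of 15115 genes with a probe set of their own on the array, 72 belong to this set, and 56 of the 72 passed the filter on low intensity that 9749 of all genes passed. The arrays measured RNA of MDCK II cells, an epithelial line from dog kidney, with 1 array for each of 4 conditions. These were HIF2α-KD cells in hypoxia, control cells in hypoxia, cells labelled HIF2α-KD in normoxia and control cells in normoxia. After 24 h in normoxia all cells spent a further 24 h in hypoxia or normoxia, which the study's methods give as 1% and 16% O2. The HIF2α-KD cells carried a retroviral shRNA against *EPAS1*, the gene of HIF2α. The sample labels call the other cells wild type, while the study describes control cells infected with an empty shRNA cassette. Puromycin selection is stated for the knockdown lines. The labels do not say which knockdown line was used, and the study names HIF2α-KD#1 for the normoxic experiment.

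Heat shock chaperones bind unfolded or partly folded proteins, hold them in solution and help them fold. HSP70 binds and releases its clients in a cycle driven by ATP, in which J-domain proteins deliver the client and speed up hydrolysis, and HSP110 and BAG proteins exchange the nucleotide. Small heat shock proteins hold clients without ATP, and the ring-shaped chaperonin folds actin and tubulin. HSP90 matures kinases, receptors and other clients, among them HIF-α subunits. Under stress HSF1 forms trimers that bind heat shock elements and drive transcription of many of these genes.

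The values are intensities on a linear scale as deposited. The median over all probe sets was 28.9 on the HIF2α-KD array and 29.1 on the control array in hypoxia, and 28.4 on the array labelled HIF2α-KD and 28.2 on the control array in normoxia. Dim reporter probe sets, which serve here as background, had a 95th percentile of 20.6 to 27.2. *EPAS1* had an intensity of 32.6 on the HIF2α-KD array and 116 on the control array in hypoxia, and of 47.9 on the array labelled HIF2α-KD and 44.6 on the control array in normoxia. The shRNA's target was thus lower in the knockdown cells under hypoxia but was not lower on the normoxic array with that label, and the normoxic array is called by its label throughout. *ADM*, a HIF target, had 5268 and 9897 in the hypoxic HIF2α-KD and control cells, against 436 and 397 in their normoxic counterparts. The HIF targets *VEGFA* and *LOX* were lower under the knockdown label at both oxygen levels. *VEGFA* had 2137 in HIF2α-KD cells and 3752 in control cells in hypoxia, and 535 on the array labelled HIF2α-KD and 1447 on the control array in normoxia, and *LOX* had 668 and 999 in hypoxia and 452 and 520 in normoxia. Of 6 kidney epithelial markers, 4 lay above the 95th percentile of the reporters on all arrays, and *PAX8* was at background. The sixth, *CDH1* (E-cadherin), was above it on the hypoxic arrays alone. It had 81.4 and 119 in hypoxic HIF2α-KD and control cells, against 18.9 and 15.5 on the normoxic arrays. *CDH1* passed the intensity filter through its hypoxic arrays alone. A higher value in hypoxia thus followed from how it was kept, and no test of it is given. All 5 fibroblast markers were at background, with summed intensities of 44.4 to 57.6. Of 4 endothelial markers 1, *CDH5*, was above that percentile on all arrays (sums of 111 to 143), as were all 4 leukocyte markers, each dim, with sums of 131 to 154. Their part in the chaperone results was not tested. Cell number and RNA per cell cannot be told apart in such bulk samples, so that a lower intensity may stand for fewer cells of a kind or for less RNA in each.

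A difference between a pair of arrays is given as the difference of log2(intensity + 16), a scale on which dim genes appear to change less than they do. With 1 array per condition it has no error and no p-value. A fit with limma over all 4 arrays took oxygen level and cell line as additive terms, with Benjamini-Hochberg adjustment over the 9749 genes. Its single residual degree of freedom holds noise and any difference of the hypoxia response between the cell lines. Its SEs and p-values combine this residual with a prior variance estimated over all genes. They thus do not measure the spread of a gene's own 4 values alone, nor a spread between replicates. No source says that the arrays came from separate cultures. Where a gene had several probe sets, the brightest stood for it, and intensities of different genes are not compared, since probe sets differ in how brightly they bind.

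In the limma fit *HSPH1* and *HSPB1* were the chaperone genes called higher in hypoxia, and the call of *HSPB1* lay at the threshold. They were the 2 of 56 called in the hypoxia term (3.57%), where 2.4% of all genes were called higher, and 0 of 56 were called lower, against 0.421% of all genes. At an unadjusted p under 0.05, 8 of the 56 were higher and 7 lower (13.1% and 7.43% of all genes). In HIF2α-KD cells 0 of the 56 passed 2-fold between hypoxia and normoxia in either direction, beside 1.38% higher and 0.421% lower of all genes. In control cells 2 of the 56 were at least 2-fold higher in hypoxia, again *HSPH1* and *HSPB1*, beside 3.05% of all genes, and 0 were at least 2-fold lower, beside 0.544%. At 1.5-fold, 3 of the 56 were higher in HIF2α-KD cells (beside 5.47% of all genes) and 0 lower (beside 2.69%), and in control cells 4 were higher (beside 10.2%) and 2 lower (beside 4.32%). For genes lower at an unadjusted p under 0.05 the share of the 56 was 12.5%, against the 7.43% of all genes. The median difference over the 56 genes was 0.04 in HIF2α-KD cells and -0.06 in control cells, beside 0.02 and 0.03 over all genes.

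**Figure D1:**
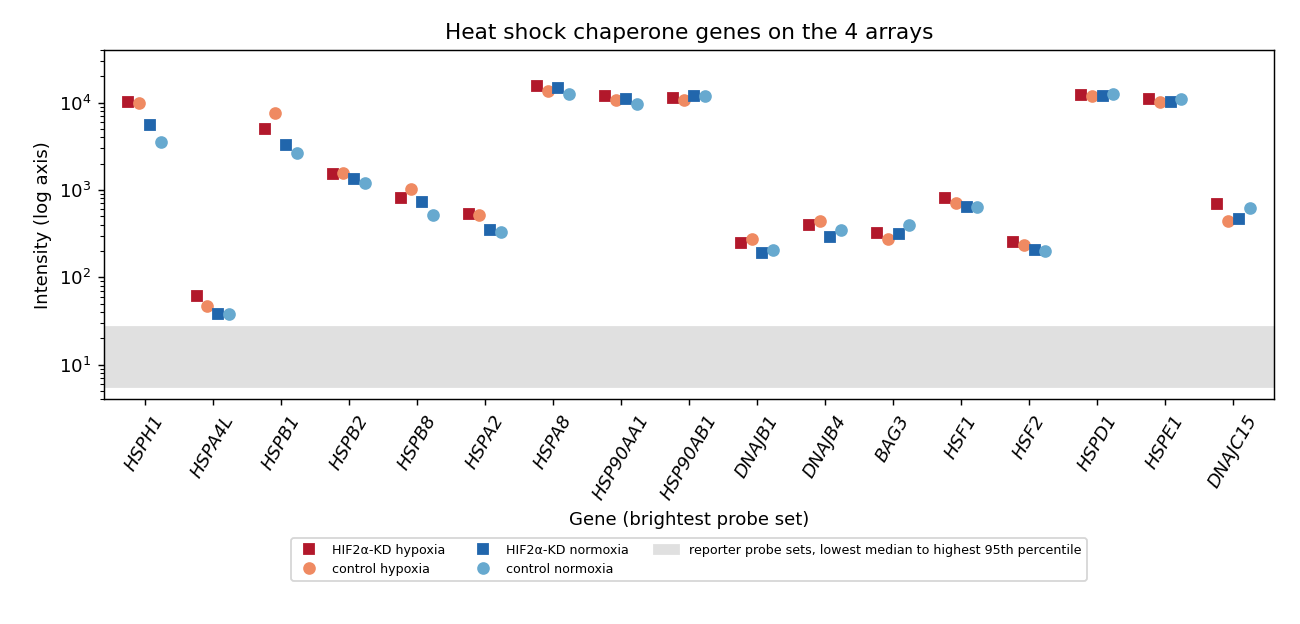
Intensity (log axis) of the brightest probe set of 17 chaperone genes on each of the 4 arrays, squares for HIF2α-KD and circles for control, with hypoxic arrays in red and orange and normoxic ones in dark and light blue, and a grey band for the reporter probe sets (lowest median up to highest 95th percentile). *HSPH1* and *HSPB1* lie clearly higher on both hypoxic arrays, while *HSPA8*, *HSP90AA1*, *HSP90AB1*, *HSPD1* and *HSPE1* lie close together on all 4.

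*HSPH1* encodes HSP105, the stress-inducible HSP110 that acts as a nucleotide exchange factor for HSP70. Its intensity was 10028 in HIF2α-KD cells and 9818 in control cells in hypoxia, against 5589.8 on the array labelled HIF2α-KD and 3560.3 on the control array in normoxia. Both hypoxic arrays were close to each other and above both normoxic arrays, which lay apart. The hypoxia difference was 0.84 in HIF2α-KD cells (1.79-fold) and 1.46 in control cells (2.75-fold). The fitted hypoxia term was 1.15 ± 0.145 (SE, 4 arrays; limma, adjusted p = 0.0156), and over 10 alternative settings the adjusted p ranged from 0.00174 to 0.0691, passing 0.05 in 8. The other 2 kept probe sets of *HSPH1* gave 1.18 and 1.40 in HIF2α-KD cells and 1.55 and 1.77 in control cells. In normoxia all 3 probe sets were higher under the HIF2α-KD label than in control cells, by 0.65, 0.45 and 0.45, and differed by 0.03 to 0.08 between the cell lines in hypoxia.

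The other HSP110 genes did not pass the test. *HSPA4*, the constitutive cytosolic HSP110, had 2583 and 2618 in hypoxic HIF2α-KD and control cells, against 3108 and 3367 on the normoxic arrays. Its differences in hypoxia were -0.27 in HIF2α-KD cells and -0.36 in control cells, opposite in sign to those of *HSPH1* (limma, adjusted p = 0.173). *HSPA4L* was dim, at 60.9 and 46.8 in hypoxia and 37.7 and 38.3 in normoxia, and both hypoxic arrays lay above both normoxic ones. Its other kept probe set had 40.1 and 29.3 in hypoxia and 34.0 and 34.1 in normoxia, with the hypoxic control array the lowest.

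Among the small heat shock proteins, *HSPB1* encodes HSP27, which also binds actin filaments. Its intensity was 4971 in HIF2α-KD cells and 7550 in control cells in hypoxia, and 3249 on the array labelled HIF2α-KD and 2640.0 on the control array in normoxia. The hypoxic arrays were both above the normoxic ones, and the control array was the higher in hypoxia. The hypoxia difference was 0.61 in HIF2α-KD cells (1.53-fold) and 1.51 in control cells (2.85-fold). The fitted hypoxia term was 1.06 ± 0.198 (SE, 4 arrays; limma, adjusted p = 0.0471). This call lies at the threshold: over the 10 alternatives the adjusted p ranged from 0.00975 to 0.152, and it passed in 3. The other probe set of *HSPB1* had 1232.7 and 2075 in hypoxic HIF2α-KD and control cells and 702 and 726 on the normoxic arrays, and was thus also higher on both hypoxic arrays, by 0.80 in HIF2α-KD cells.

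*HSPB8*, or HSP22, works with BAG3 in the clearance of misfolded proteins. It had 814.5 in HIF2α-KD cells and 1031.9 in control cells in hypoxia, against 719.9 on the array labelled HIF2α-KD and 511.7 on the control array in normoxia. By the brightest probe set of each gene, the order of the arrays was that of *HSPB1*. Its hypoxia difference was 0.17 in HIF2α-KD cells and 0.99 in control cells, and the fitted term did not pass (limma, adjusted p = 0.187). Its other 2 probe sets gave 0.38 and 0.10 in HIF2α-KD cells and 0.78 and 0.88 in control cells. *HSPB2*, a small heat shock protein known from muscle, had 1517 and 1556 in hypoxic HIF2α-KD and control cells and 1321 and 1198 on the normoxic arrays. *HSPB2* lies next to *CRYAB* in the dog annotation, the gene of αB-crystallin, which had 1147 and 1514 in hypoxia and 1344 and 1078 in normoxia, so that the groups overlap. *HSPB7* was dim, at 48.8 in hypoxic HIF2α-KD cells and 30.9 to 33.0 on the other 3 arrays. Over these 4 small heat shock genes the median hypoxia difference was 0.32 in HIF2α-KD cells and 0.68 in control cells, beside 0.02 and 0.03 over all genes. Above 0 were 4 and 3 of them, beside 53.2% of all genes in each cell line, and 4 genes are too few to describe a family.

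**Figure D2:**
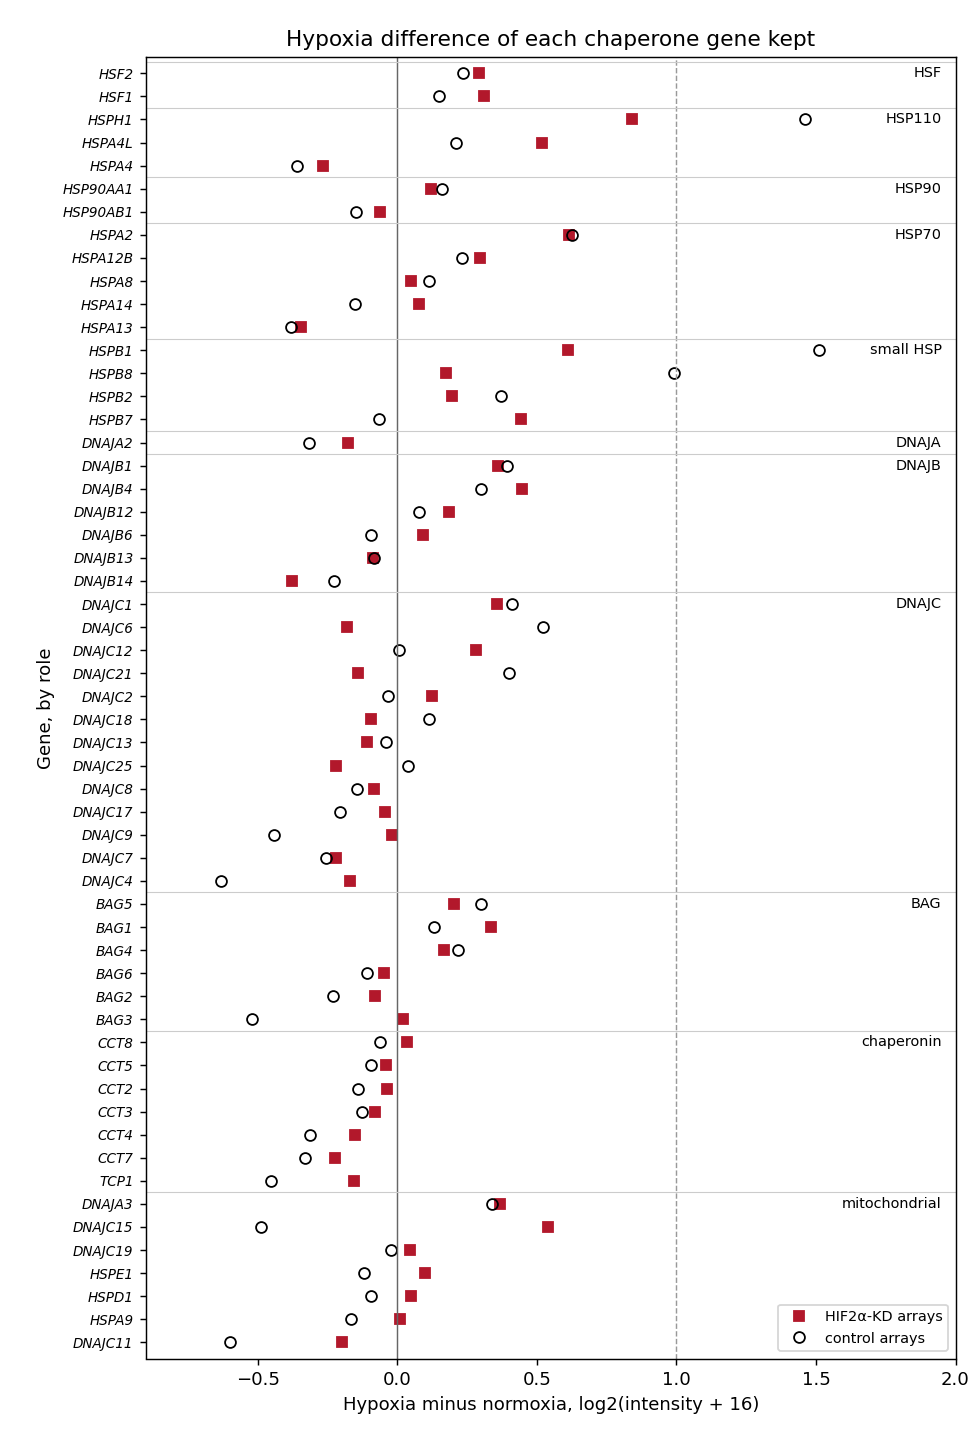
Hypoxia minus normoxia on the log2(intensity + 16) scale for each of the 56 chaperone genes kept, grouped by role down the page, as red squares for the HIF2α-KD arrays and open circles for the control arrays, with a line at 0 and a dashed line at 2-fold. *HSPH1* and *HSPB1* pass the dashed line in control cells, at 1.46 and 1.51, and most other genes lie within 0.5 of 0.

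Of the HSP70 genes, *HSPA8* encodes HSC70, the constitutive cytosolic HSP70. It was bright on all 4 arrays, at 15314 in HIF2α-KD cells and 13436 in control cells in hypoxia and at 14799 and 12435 on the normoxic arrays labelled HIF2α-KD and control. Its hypoxia difference was 0.05 in HIF2α-KD cells and 0.11 in control cells. The highest intensity on any array was between 18723 and 19831, which is not far above these values. *HSPA2*, an HSP70 known for its role in spermatogenesis, had 534 and 511 in hypoxic HIF2α-KD and control cells, against 343 and 326 on the normoxic arrays. The hypoxia difference was 0.62 in both cell lines, and the fitted term of 0.62 ± 0.141 missed the threshold (limma, adjusted p = 0.0734, 0.0436 to 0.142 over the alternatives). *HSPA13*, which is found in microsomes, had differences of -0.35 and -0.38 in HIF2α-KD and control cells. *HSPA14*, a ribosome-associated HSP70, had 0.08 and -0.15, while its dim other kept probe set gave 0.28 and 0.27.

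The stress-inducible HSP70 gene is listed on the array under the symbol *HSP70*, which the rule did not take, and it is given here after its values were seen. Its intensity was 430.6 in HIF2α-KD cells and 339.1 in control cells in hypoxia, and 235.5 and 255.4 on the normoxic arrays labelled HIF2α-KD and control. Both hypoxic arrays were above both normoxic ones, with differences of 0.83 in HIF2α-KD cells and 0.39 in control cells, and the fitted term did not pass (limma, adjusted p = 0.107). The array has no probe set with a symbol of its own for *HSPA1A*, *DNAJA1* or *CCT6A*, and these are not analysed here.

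*HSP90AA1*, the stress-responsive cytosolic HSP90, had 11810 in HIF2α-KD cells and 10718 in control cells in hypoxia, and 10852 and 9589 on the normoxic arrays. Its hypoxia difference was 0.12 in HIF2α-KD cells and 0.16 in control cells. *HSP90AB1*, the constitutive form, had 11287 and 10707 in hypoxia and 11776 and 11877 in normoxia, and differences of -0.06 in HIF2α-KD cells and -0.15 in control cells. Neither gene passed the test, and their 2 signs differ.

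*HSF1*, the main activator of the heat shock response, had 797 in HIF2α-KD cells and 716 in control cells in hypoxia, and 640 and 644 on the normoxic arrays. *HSF2*, which binds the same elements, had 256 and 236 in hypoxia and 206 and 198 in normoxia. For both, the hypoxic arrays lay above the normoxic ones, by 0.31 and 0.29 in HIF2α-KD cells and by 0.15 and 0.23 in control cells (limma, adjusted p = 0.413 for *HSF1* and 0.334 for *HSF2*). The 3 other probe sets of these genes differed in sign in control cells, where 1 was above 0 and 2 below.

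The J-domain proteins had no common direction. *DNAJB1*, the inducible HSP40, had 245 in HIF2α-KD cells and 273 in control cells in hypoxia, and 188 and 204 on the normoxic arrays. *DNAJB4*, a close relative, had 398 and 436 in hypoxia and 288 and 351 in normoxia. In both genes the hypoxic arrays were above the normoxic ones, with differences of 0.36 and 0.45 in HIF2α-KD cells and 0.39 and 0.30 in control cells, and neither passed (limma, adjusted p = 0.191 and 0.209). *DNAJC1*, which lies in the membrane of the endoplasmic reticulum, differed by 0.36 in HIF2α-KD cells and 0.41 in control cells. *DNAJB6*, an inhibitor of protein aggregation, differed by 0.09 and -0.10. In the other direction, *DNAJC4* had 259 and 270 in hypoxic HIF2α-KD and control cells, against 293 and 427 on the normoxic arrays, a difference of -0.17 in HIF2α-KD cells and -0.63 in control cells. *DNAJC7*, which hands clients between HSP70 and HSP90, had -0.22 and -0.26, and *DNAJC9*, a histone chaperone, had -0.02 and -0.44. Over the 13 kept DNAJC genes 3 were above 0 in HIF2α-KD cells and 6 in control cells, beside 53.2% of all genes in each. Their 11 other kept probe sets gave another picture, with 9 above 0 in HIF2α-KD cells and 6 in control cells, and with probe sets averaged per gene 6 and 8 of the 13 were above 0.

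The BAG proteins likewise had no common direction. *BAG3*, an HSF1 target that links HSP70 to autophagy, had 318 in HIF2α-KD cells and 271 in control cells in hypoxia, and 314 and 397 on the normoxic arrays. Its hypoxia difference was 0.02 in HIF2α-KD cells and -0.52 in control cells, and its dim other probe set gave 0.85 and -0.29. *BAG1*, which couples HSP70 to the proteasome, differed by 0.33 and 0.13, and *BAG5* by 0.20 and 0.30.

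Of the 7 kept genes of the cytosolic chaperonin, 6 were below 0 in HIF2α-KD cells and 7 in control cells, while 53.2% of all genes were above 0 in each. None of the 7 passed the test. *TCP1*, the CCT1 subunit, had 6044 in HIF2α-KD cells and 5212 in control cells in hypoxia, and 6730 and 7133 on the normoxic arrays. *CCT7* had 5916 and 5726 in hypoxia and 6902 and 7209 in normoxia, and *CCT4* had 6835 and 6192 in hypoxia and 7594 and 7702 in normoxia. In these 3 genes both hypoxic arrays lay below both normoxic arrays, with the control array the lower in hypoxia. Their differences were -0.15, -0.22 and -0.15 in HIF2α-KD cells and -0.45, -0.33 and -0.31 in control cells (limma, adjusted p = 0.165, 0.141 and 0.199). *CCT2*, *CCT3*, *CCT5* and *CCT8* lay between -0.14 and -0.06 in control cells. The median over the 7 was -0.08 in HIF2α-KD cells and -0.14 in control cells. The 12 other kept probe sets of these genes, which are dimmer, had larger differences, with a median of -0.24 in HIF2α-KD cells (10 of 12 below 0) and -0.48 in control cells (11 of 12 below 0). These counts include a dim probe set of *CCT8*, at 15.5 and 16.9 in hypoxic HIF2α-KD and control cells and 31.1 and 34.6 on the normoxic arrays. It passed the filter through its normoxic arrays alone, so that its values below 0 followed from how it was kept. With cyclic loess 4 of the 7 were below 0 in HIF2α-KD cells, while in control cells the 7 were below 0 under every normalization tried.

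**Figure D3:**
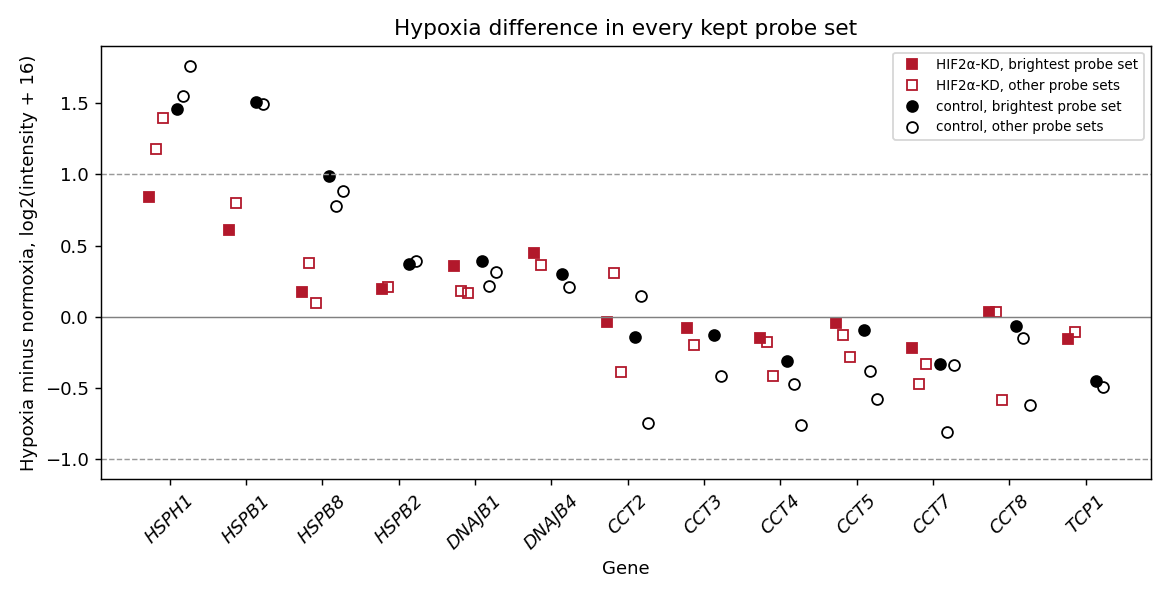
Hypoxia minus normoxia on the log2(intensity + 16) scale for every kept probe set of 13 chaperone genes, filled for the brightest probe set and open for the others, as red squares for HIF2α-KD and black circles for control, with dashed lines at 2-fold. All probe sets of *HSPH1* and *HSPB1* lie above 0.5, and in control cells 11 of the 12 further chaperonin probe sets lie below 0. Among the 12, the dim probe set of *CCT8* (-0.58 in HIF2α-KD and -0.62 in control cells) passed the filter through its normoxic arrays alone.

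Among the mitochondrial chaperones none passed the test in hypoxia. *HSPD1* and *HSPE1*, neighbouring genes that encode the chaperonin HSP60 and its lid HSP10, had differences of 0.05 and 0.10 in HIF2α-KD cells and -0.09 and -0.12 in control cells. *HSPA9*, the mitochondrial HSP70 mortalin, had 0.01 and -0.17. *DNAJA3*, the mitochondrial J-domain protein Tid1, had 93.7 in HIF2α-KD cells and 94.2 in control cells in hypoxia, and 69.1 and 71.2 on the normoxic arrays, differences of 0.37 in HIF2α-KD cells and 0.34 in control cells (limma, adjusted p = 0.225). Its other 2 kept probe sets gave 0.03 and -0.09 in HIF2α-KD cells and -0.32 and 0.37 in control cells, so that the probe sets differ in sign in both cell lines. *DNAJC11*, a protein of the mitochondrial outer membrane, had 218 and 195 in hypoxic HIF2α-KD and control cells, against 253 and 304 on the normoxic arrays. Its differences were -0.20 in HIF2α-KD cells and -0.60 in control cells, where it and *DNAJC4* were the 2 genes at least 1.5-fold lower, and its 3 other kept probe sets lay below 0 in both cell lines.

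*DNAJC15*, a J-domain protein of the mitochondrial inner membrane that acts in protein import, had opposite differences in the cell lines. Its intensity was 687 in HIF2α-KD cells and 439 in control cells in hypoxia, and 468 on the array labelled HIF2α-KD and 623 on the control array in normoxia. The highest and the lowest array were thus both hypoxic. The hypoxia difference was 0.54 in HIF2α-KD cells and -0.49 in control cells, and its other probe set gave 0.45 and -0.22. It was the 1 gene of the 56 whose hypoxia difference was at least 2-fold larger in HIF2α-KD cells than in control cells, by 1.03, beside 0.759% of all genes, and also the 1 gene past 1.5-fold (4.22% of all genes), while 0 of the 56 were at least 2-fold smaller (1.78%). With 1 array per condition this difference of differences was not tested.

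The hypoxic arrays did not overlap the normoxic ones in 33 of the 56 genes. Both were above in 15 genes (26.8%, beside 27.1% of all genes) and both below in 18 (32.1%, beside 22.6%). Of the 15, *HSPH1*, *HSPB1*, *HSPB2*, *HSPB8*, *HSPA2*, *HSPA4L*, *DNAJB1*, *DNAJB4*, *HSF1* and *HSF2* have been described. The 18 include *TCP1*, *CCT2*, *CCT3*, *CCT4*, *CCT5*, *CCT7*, *HSPA4*, *HSPA13* and *HSP90AB1*. The hypoxia difference had the same sign in both cell lines in 41 of the 56 (73.2%, beside 65.9% of all genes), and it was the larger in size in control cells in 39 (69.6%, beside 58.4%). Across the 56 genes the differences in HIF2α-KD and control cells, which share no array, correlated at r = 0.66, beside 0.527 over all genes. Genes are not independent replicates, and these values are descriptions. The hypoxia difference was at least 1.5-fold smaller in HIF2α-KD cells in 4 genes, *HSPB1* (-0.90), *HSPB8* (-0.82), *DNAJC6* (-0.70) and *HSPH1* (-0.62), which is 7.14% of the 56 beside 6.77% of all genes. *DNAJC6* was dim, at 19.3 to 34.6, and passed the filter through the hypoxic control array alone, so that a smaller difference in HIF2α-KD cells followed from how it was kept. Without it the count is 3.

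Between HIF2α-KD and control cells no chaperone gene reached 2-fold. In hypoxia 0 of the 56 were past 2-fold in either direction, beside 0.103% of all genes higher and 0.882% lower, and in normoxia 0 of the 56, beside 0.615% and 0.544%. In the limma fit 0 of the 56 were called in the knockdown term, as were 0 of all 9749 genes. At an unadjusted p under 0.05 *HSPA8* was higher and *DNAJB14* lower, beside 2.11% and 7.52% of all genes.

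In hypoxia *HSPB1* was the 1 gene at least 1.5-fold lower in HIF2α-KD cells (-0.60, beside 4.93% of all genes), and *DNAJC15* the 1 gene at least 1.5-fold higher (0.63, beside 1.62%). The other probe set of *HSPB1* gave -0.74 and that of *DNAJC15* 0.33. In normoxia *HSPH1* was the 1 gene at least 1.5-fold higher on the array labelled HIF2α-KD (0.65, beside 2.45% of all genes), and 0 were lower by as much (3.55% of all genes). *HSPB1* and *HSPB8* had 0.30 and 0.48 in normoxia, opposite in sign to their -0.60 and -0.34 in hypoxia, though the other probe set of *HSPB1* gave -0.05 in normoxia. The other 2 probe sets of *HSPB8* gave 0.43 and 0.56 in normoxia and 0.03 and -0.23 in hypoxia, so that 1 of them kept its sign.

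*HSPA8* was higher under the knockdown label at both oxygen levels, by 0.19 in hypoxia and 0.25 in normoxia (limma knockdown term 0.22, adjusted p = 0.336). *HSP90AA1* was higher by 0.14 and 0.18. Both KD arrays were above both control arrays in 3 of the 56 genes (5.36%, beside 11.1% of all genes), and the other one was *DNAJC19*. Both were below in 10 (17.9%, beside 17.7%). *DNAJB14*, a J-domain protein in the membrane of the endoplasmic reticulum, had 276 in HIF2α-KD cells and 389 in control cells in hypoxia, and 364 on the array labelled HIF2α-KD and 459 on the control array in normoxia, differences of -0.47 and -0.32. *DNAJB12*, its relative in the same membrane, had -0.23 in hypoxia and -0.33 in normoxia. All 6 kept DNAJB genes were below 0 at both oxygen levels, while 44.3% of all genes were above 0 in hypoxia and 43.5% in normoxia. Their medians were -0.13 in hypoxia and -0.24 in normoxia, though 1 of the 6 was above 0 in hypoxia with quantile or cyclic loess normalization. Of their 9 other kept probe sets, 2 were above 0 in hypoxia and 1 in normoxia. The dimmest of *DNAJB12* passed the filter through the normoxic control array alone (29.3, against 19.5 on the array labelled HIF2α-KD). Its value below 0 in normoxia thus followed from how it was kept.

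Over the 56 genes the knockdown difference was above 0 in 31 in hypoxia (55.4%, beside 44.3% of all genes) and in 14 in normoxia (25%, beside 43.5%). The medians were 0.02 and -0.08, beside -0.04 over all genes in each. By role, the 7 chaperonin genes were all above 0 in hypoxia, with a median of 0.05, and 6 of them were below 0 in normoxia, with a median of -0.05. Of their 12 other kept probe sets, 11 were above 0 in hypoxia, while in normoxia 8 were below 0 and 4 above. With probe sets averaged per gene, 5 of the 7 were below 0 in normoxia, with a median of -0.02. All 6 BAG genes were below 0 in normoxia, though 1 was above with quantile or cyclic loess normalization. The sign was the same at both oxygen levels in 27 of the 56 (48.2%, beside 55.3% of all genes), and across the 56 genes the 2 differences correlated at r = -0.0768, beside 0.171 over all genes. These differences share no array with each other, but each shares arrays with the hypoxia differences above.

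**Figure D4:**
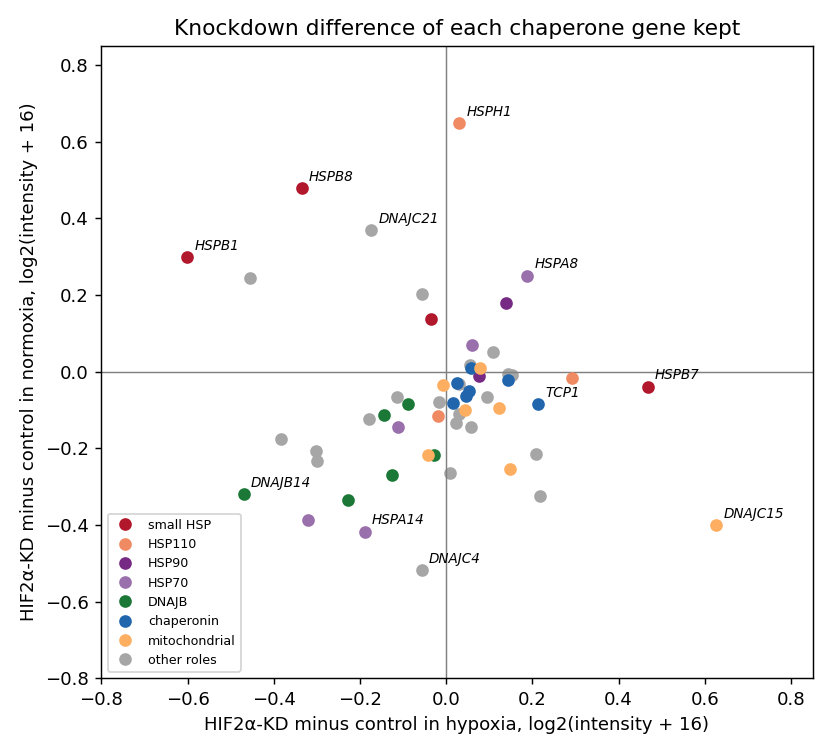
HIF2α-KD minus control on the log2(intensity + 16) scale in hypoxia (horizontal axis) and in normoxia (vertical axis, from the array labelled HIF2α-KD) for each of the 56 chaperone genes kept, coloured by role. No gene reaches 1 in size on either axis, and *HSPB1* and *HSPB8* lie left of and above 0 while *DNAJC15* lies right of and below 0.

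Of 34 further genes listed as co-chaperones, prefoldins and mitochondrial proteases of protein folding, 31 were kept. *LONP1*, the ATP-dependent protease of the mitochondrial matrix, rose in hypoxia, which made 1 of the 31 called higher and 0 called lower, beside 2.4% and 0.421% of all genes. Its intensity was 816 in HIF2α-KD cells and 1062 in control cells in hypoxia, against 400.2 on the array labelled HIF2α-KD and 514 on the control array in normoxia. The hypoxic arrays were above the normoxic ones by 1.00 and 1.02 in HIF2α-KD and control cells (limma, adjusted p = 0.0197, 0.00563 to 0.0505 over the alternatives). *FKBP4*, an HSP90 co-chaperone of steroid receptors, had 2724 in HIF2α-KD cells and 2064 in control cells in hypoxia and 2818 and 3309 on the normoxic arrays, so that the HIF2α-KD arrays differed by -0.05 and the control arrays by -0.68. Of 22 genes listed as targets of heat shock factors, 18 were kept, 11 of which belong to the 56. The limma fit called *HSPH1* and *HSPB1* among the 18 and 0 of the 7 others, beside 2.4% of all genes called higher. The median hypoxia difference of the 18 was 0.15 in HIF2α-KD cells and 0.14 in control cells, beside 0.02 and 0.03 over all genes. For the 7 that do not belong to the 56 it was 0.17 and -0.10, with 4 and 3 of them above 0, beside 53.2% of all genes in each. *SERPINH1*, the collagen chaperone HSP47, had the lowest adjusted p of the 7 (limma, 0.069), with 270 and 222 in hypoxic HIF2α-KD and control cells, against 164 and 143 on the normoxic arrays.

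The 16 genes that did not pass the filter were *DNAJA4*, *DNAJB3*, *DNAJB5*, *DNAJB7*, *DNAJB8*, *DNAJC5B*, *DNAJC16*, *DNAJC22*, *DNAJC27*, *DNAJC30*, *HSPA12A*, *HSPB3*, *HSPB6*, *HSPB9*, *CCT6B* and *CCT8L2*. Their intensities were 1 to 28.6. On these arrays 13 of them lay below the 95th percentile of the reporters throughout and 3 above it on some arrays. Of the 56 kept genes, 39 had a further kept probe set, 64 in all. The further probe sets had the sign of the brightest in 51 of 64 for the hypoxia difference in HIF2α-KD cells, 53 in control cells, and in 52 for the knockdown difference in hypoxia and 45 in normoxia. The 64 include dim ones kept through some arrays alone, such as those of *CCT8* and *DNAJB12* named above. Of the 56 brightest probe sets, 23 carry the suffix by which Affymetrix marks probes shared between transcripts and 1 (*HSPE1*) that for probes that may bind other sequences, so that related transcripts may add to their signal.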

How the data were processed

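The authors labelled the RNA with biotin (Affymetrix 3' kit) and hybridised it to canine arrays, 1 per condition. The deposited table holds linear intensity values for each probe set. How the authors corrected background and scaled the arrays, and with which software, is not given in the sources used here. Of 42924 probe sets, 29254 carry 1 gene symbol in the platform annotation, 439 several and 13167 none, and 64 are reporters. For 69 of the 72 genes the Entrez identifier matched a dog RefSeq gene, each with the same symbol.

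Probe sets whose highest intensity reached 28.75, the median of the table without reporters, were kept, and log2(intensity + 16) was taken. The additive limma fit used a mean-dependent prior variance and 0.05 as threshold. On simulated data over 9749 genes with a noise SD of 0.151, its hypoxia term recovered 100 of 100 genes changed by 1, 100 of 100 changed by 2, and called 7 unchanged genes. The simulated noise had the same SD for every gene, and the hypoxia response did not differ between the cell lines. In the real data both can differ, so this recovery does not tell how many changes the 4 arrays can detect. The number of arrays limits the precision. The members and lists were chosen with earlier results of these data known. Genes named are those past a threshold, those with the largest differences in each comparison and role, a fixed core of chaperones, and others said to be named after their values were seen, to which *CRYAB* and *SERPINH1* belong. Alternatives tried were 3 normalizations (quantile, cyclic loess, median centring), 2 filters (none, 75th percentile), averaging the probe sets of a gene, pseudocounts of 1 and 64, a 1.5-fold threshold, and limma without trend or with robust moderation. R 4.3.3, limma 3.58.1, Python 3.11.15, numpy 2.4.6, pandas 2.3.3 and matplotlib 3.10.9 were used. No genome or promoter sequence was used, so no coordinates are given and the planned motif search was not run.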

Additional observations from a re-analysis of the deposited data

How the results depend on the processing

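Neither *HSPH1* nor *HSPB1* changed direction under any alternative, but some values near 0 changed sign. The median hypoxia difference in HIF2α-KD cells was 0.04, and -0.0036 with no filter. That of the DNAJC genes in control cells was -0.03, and 0.04 with probe sets averaged, and their knockdown difference in hypoxia was -0.06, and 0.03 with quantile normalization. Across the alternatives the fitted hypoxia term of *BAG3* ran between -0.33 and 0.01, and the knockdown term of *DNAJC21* between -0.18 and 0.18. Further role medians close to 0 also changed sign. At a 1.5-fold threshold 3 chaperone genes differed by oxygen level in HIF2α-KD cells and 6 in control cells, and 2 differed by cell line in hypoxia and 1 in normoxia, in place of 0, 2, 0 and 0 at 2-fold. With probe sets averaged per gene *HSPH1* passed 2-fold in HIF2α-KD cells, so that the count there was 1, and with a pseudocount of 1 the count in control cells was 3. The limma hypoxia term called 2 chaperone genes in the main analysis. It called 1, *HSPH1*, with cyclic loess, median centring, the filter at the 75th percentile or the mean of probe sets, and 0 with no filter or without the trend. With robust moderation it called 2, *HSPA2* and *HSPH1*. Over all genes the hypoxia term called 275, against 479 with quantile normalization, 456 with robust moderation, 162 with cyclic loess, 178 with the mean of probe sets, 102 without the trend and 70 with no filter. The knockdown term called 0 genes, against 16 with quantile normalization, 21 with robust moderation, 10 with a pseudocount of 1 and 4 with one of 64, with 0 chaperone genes among them under each. At an unadjusted p under 0.05 it held 939 genes. The cause of these shifts was not tested. The median of the chaperone genes moved by less than 0.1 on the log2 scale under each alternative in all 4 comparisons. No paired analysis was possible because each condition has 1 array, and no array can be left out of the fit without losing its residual degree of freedom.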

Other observations

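Some chaperone genes were read differently by their probe sets, all chosen after the values were seen. *DNAJC21*, a J-domain protein of ribosome maturation, had 659 in HIF2α-KD cells and 745 in control cells in hypoxia, and 729 on the array labelled HIF2α-KD and 561 on the control array in normoxia, by its brightest probe set. Its other probe set had 153 and 210 in hypoxia and 142 and 206 in normoxia. The knockdown difference in normoxia was thus 0.37 by the brightest probe set and -0.49 by the other. *HSP90AB1* has a dim probe set besides its 3 bright ones. It had 133 in HIF2α-KD cells and 216 in control cells in hypoxia, and 156 and 267 on the normoxic arrays, differences of -0.64 and -0.72 between HIF2α-KD and control, where the brightest probe set gave 0.08 and -0.01. *HSP90AA1* was read from 1 probe set, since 2 more are shared with another locus in the annotation and were not used.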
